A study of Mus musculus with 6 samples.

Results

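The genes described here mark B cells and the lymphoid follicles in which B cells gather in the gut wall. They are 33 genes chosen by name from the 23284 genes of the count files, all with at least 10 reads summed over the 6 libraries. RNA came from the intestine, jejunum and ileum together, of male mice aged 8 weeks. SHP-KO mice lack SHP (small heterodimer partner, gene Nr0b2), a nuclear receptor without a DNA-binding domain that represses other transcription factors, and they were compared with wild-type (WT) mice, with 3 libraries per genotype. Mice of both genotypes were fasted overnight and then refed for 6 h. The labels name neither a strain nor whether each library came from its own animal, and they do not say whether pieces of gut wall with lymphoid follicles were included or avoided.

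B cells recognise antigen through a membrane immunoglobulin that signals by way of the CD79A and CD79B chains. In the small intestine naive B cells gather in Peyer's patches and in smaller isolated follicles. Stromal and follicular dendritic cells draw them in with the chemokine CXCL13, lymphocytes keep that stroma in place with lymphotoxin, and new lymphocytes enter from the blood through high endothelial venules that display the addressin MAdCAM-1. IgA plasma cells of the lamina propria lie mostly outside the follicles and have lost most surface markers of B cells.

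The libraries held 7956528 to 9289543 assigned reads in SHP-KO and 11265437 to 13511800 in WT. Nr0b2 had 1, 0 and 0 reads in SHP-KO libraries, against 31, 14 and 23 reads in WT libraries. Of 12106 genes tested with edgeR's quasi-likelihood test, 70.6% passed an adjusted p of 0.05, with 35.4% lower and 35.2% higher in SHP-KO. Libraries of a genotype were close to each other, with an estimated common coefficient of variation (CV) of 0.0297, and the p-values measure that spread only, which may be technical. In bulk RNA, fewer cells of a type and less RNA per cell cannot be told apart.

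Most of the 33 genes were far lower in SHP-KO libraries, and 4 of them (Cr2, Fcer2a, Faim3 and Ccr6) had no read there. For 31 of the 33, every SHP-KO library lay below every WT library in CPM (counts scaled to library size with TMM factors), whereas Bcl6 and Chst4 lay above in every SHP-KO library. The same separation downwards was seen for 36.1% of all tested genes. Summed over the 33 genes, the level was 48.5 ± 2.74 CPM in SHP-KO and 226 ± 2.41 CPM in WT (SD, n = 3 each). Of the 33, 31 passed the filter on low counts and were tested, of which 29 were lower and 2 higher. Of those 31, 19 exceeded the filter's level of 0.973 CPM in WT libraries only, so that they had to differ to be tested. The count of 29 is given as a description. So are the adjusted p-values printed below for Cd79a, Cd79b, Cd40, H2-Ob, Gpr183 and Btla, which are among the 19. The 8 that exceeded it in every SHP-KO library too were Cd72, Blnk, Cd37, Bcl6, Cd83, Il21r, Ltb and Chst4, with 6 lower and 2 higher. The other 4, Cd22, Pou2af1, Cxcr5 and Il22ra2, exceeded it in some SHP-KO libraries only and needed WT libraries to be tested. Their adjusted p-values are a description too.

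**Figure D1:**
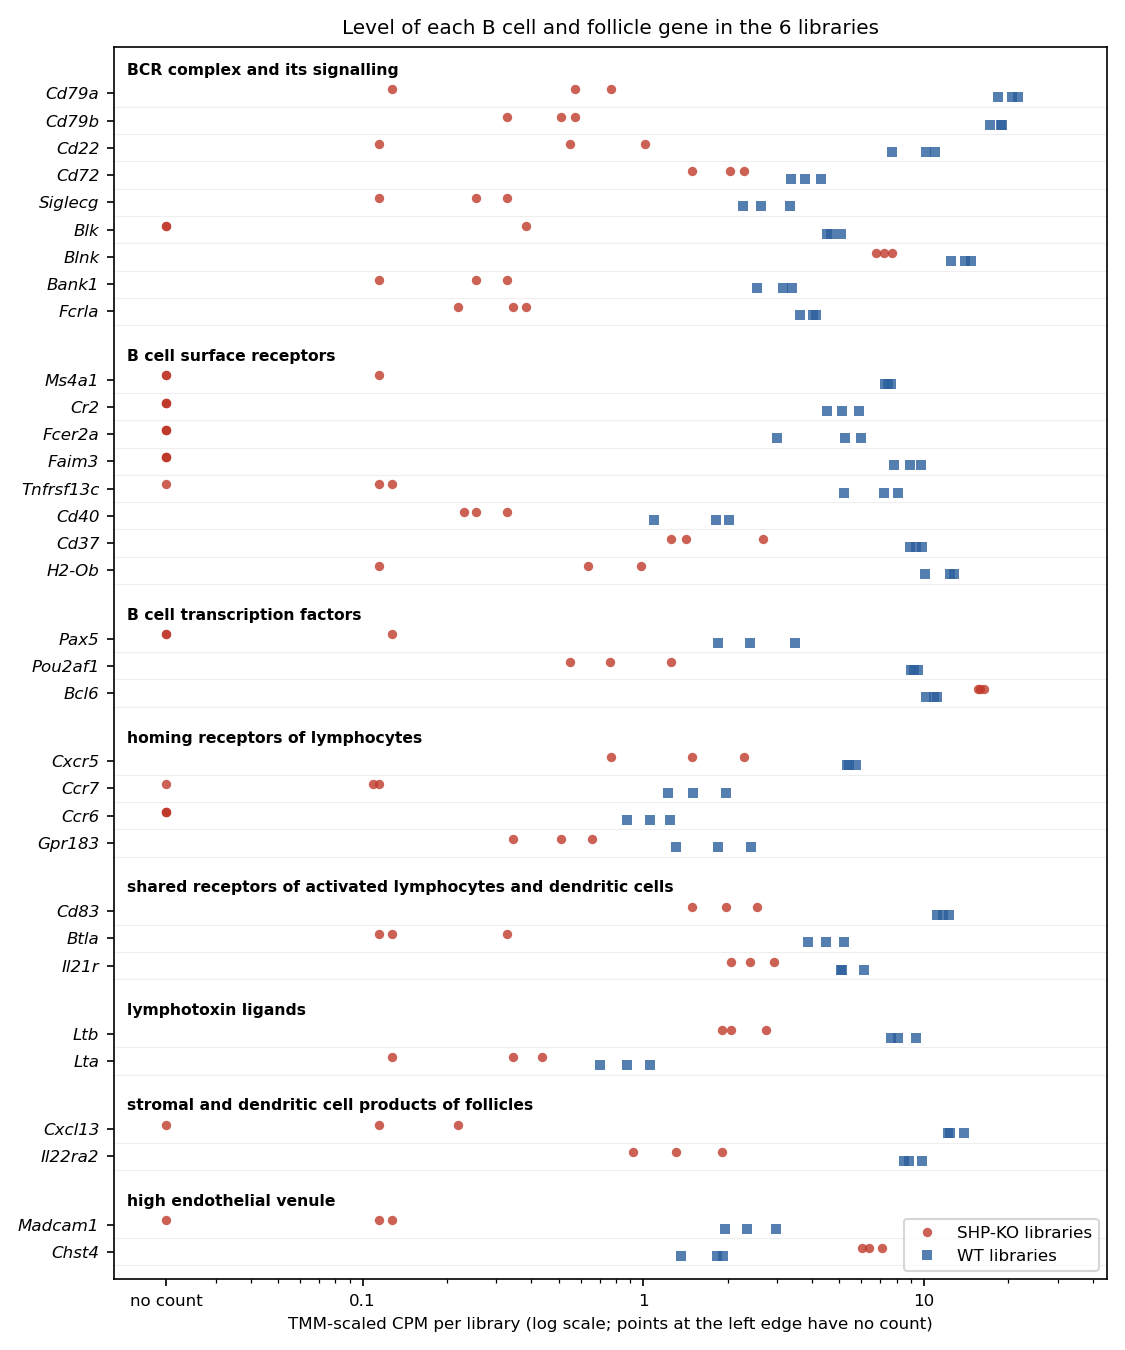
TMM-scaled CPM of each of the 33 genes in the 3 SHP-KO libraries (red circles, upper row of each gene) and the 3 WT libraries (blue squares, lower row), on a log axis with libraries without a read drawn at the left edge. All but Bcl6 and Chst4 have their SHP-KO libraries to the left of their WT libraries, and Cr2, Fcer2a, Faim3 and Ccr6 have no read in any SHP-KO library.

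Both chains that signal for membrane immunoglobulin were nearly undetected in SHP-KO. Cd79a, on chromosome 7 from 25682530 to 25687216 (mm9), had 1, 7 and 5 reads in SHP-KO libraries, against 282, 210 and 287 reads in WT libraries. Its partner Cd79b, on chromosome 11 from 106172655 to 106175843, had 4, 3 and 5 reads in SHP-KO libraries, against 261, 197 and 250 reads in WT libraries. Both genes sat at a few reads in every SHP-KO library with no overlap between genotypes. Their SHP-KO levels were 2.41% and 2.55% of the WT levels, which gave log2 fold changes of -5.30 (SE 0.219) for Cd79a and -5.27 (SE 0.222) for Cd79b, with adjusted p-values of 3.6e-38 and 1.4e-37. The chains are made in step with each other in B cells, and their levels per kilobase of exon were alike in WT, at 15.2 ± 1.26 and 15.4 ± 0.826 CPM per kb (SD, n = 3). In SHP-KO they were 0.368 ± 0.247 and 0.392 ± 0.106 CPM per kb, from 13 and 12 reads, too few to show likeness.

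The kinase, adaptors and inhibitory coreceptors around that complex covered a wider range. Blk, a Src family kinase of B cells, had 3, 0 and 0 reads in SHP-KO libraries, against 64, 58 and 60 reads in WT libraries. All its SHP-KO reads came from replicate 1. The ratio of summed levels was 40.7 with an exact 95% counting interval of 13.7 to 199, an interval that, like all those given here, covers counting error only. Without that library no Blk read remained and the fitted log2 fold change went to -8.74, beside -5.21 with all libraries. Cd22, a sialic acid binding receptor that dampens B cell receptor signals, had 8, 5 and 1 reads in SHP-KO libraries, against 140, 88 and 145 reads in WT libraries (log2 -4.13, SE 0.274, adjusted p 5.7e-24). Its SHP-KO libraries spread widely but stayed well below WT, and without SHP-KO replicate 1 the log2 fold change was -4.81. Siglecg, a related inhibitory lectin, had a log2 fold change of -3.48 (2, 3 and 1 reads in SHP-KO libraries, against 36, 38 and 30 in WT libraries). The scaffold Bank1 was at -3.64 and Fcrla, an intracellular Fc receptor-like protein of B cells, at -3.61.

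Blnk and Cd72 kept about 50% of their WT level. Blnk, the adaptor that couples the kinase SYK to phospholipase C and is also made in macrophages, had 53, 66 and 67 reads in SHP-KO libraries, against 171, 168 and 185 reads in WT libraries, or 52.5% of the WT level (log2 -0.92, SE 0.127, adjusted p 7.7e-10). Cd72, an inhibitory coreceptor, had 16, 21 and 13 reads in SHP-KO libraries, against 46, 49 and 50 reads in WT libraries, or 50.9% (log2 -0.96, SE 0.243, adjusted p 0.00032). The genotypes did not overlap for either gene. Cd72 shares exon bases with Tesk1, and since the counting ignored strand its reads may be incomplete or mixed. It was the only one of the 33 genes that shares exon bases with another gene in the count files.

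Among the surface receptors, those of naive follicular B cells had the largest differences. Ms4a1, which encodes CD20, had 0, 0 and 1 reads in SHP-KO libraries, against 105, 85 and 96 reads in WT libraries. The ratio of summed levels was 192 (95% counting interval 34.2 to 7609). Without SHP-KO replicate 3 no Ms4a1 read was left and the fitted log2 fold change of -7.21 went to -9.37, and with limma-voom it was -6.48. Cr2, the complement receptor of follicular B cells and follicular dendritic cells, had no read in SHP-KO libraries, against 70, 67 and 60 reads in WT libraries. The low-affinity IgE receptor Fcer2a (CD23) likewise had none, against 41, 60 and 79 reads in WT libraries. For Faim3, an IgM receptor now named Fcmr, the WT libraries held 134, 102 and 104 reads and the SHP-KO libraries none. A floor of 3 reads over the SHP-KO group equals 0.117 CPM, against which Cr2, Fcer2a and Faim3 were at least 44.1-fold, 40.3-fold and 76.1-fold lower. Tnfrsf13c, the receptor for the survival factor BAFF, had 1, 0 and 1 reads in SHP-KO libraries, against 99, 92 and 69 reads in WT libraries, a ratio of 87.3 (95% counting interval 23.9 to 724).

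Cd40, Cd37 and H2-Ob complete this group, and none of them was at 0 in a SHP-KO library. Cd40, which receives help from T cells and is also found on dendritic cells, had 2, 3 and 2 reads in SHP-KO libraries, against 15, 23 and 24 reads in WT libraries (log2 -2.52, SE 0.477, adjusted p 2.5e-06). The tetraspanin Cd37 had 21, 13 and 11 reads in SHP-KO libraries, against 122, 112 and 124 reads in WT libraries (log2 -2.41, SE 0.202, adjusted p 6.4e-19), and so kept 19.1% of its WT level. H2-Ob, the beta chain of the class II modulator H2-O, had 5, 9 and 1 reads in SHP-KO libraries, against 175, 115 and 164 reads in WT libraries (log2 -4.31, SE 0.252, adjusted p 2.8e-27). No library of one genotype reached the range of the other for these genes, and without SHP-KO replicate 2 the H2-Ob value was -4.99.

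The transcription factors parted. Pax5, which commits cells to the B lineage, had 1, 0 and 0 reads in SHP-KO libraries, against 33, 21 and 46 reads in WT libraries, a ratio of 67.1 (95% counting interval 11.8 to 2677). Without SHP-KO replicate 1 no Pax5 read was left and the fitted log2 fold change was -7.88, beside -5.69 with all libraries and -4.93 with limma-voom. Pou2af1, the coactivator OCA-B that works with octamer-binding factors in B and plasma cells, had 6, 5 and 11 reads in SHP-KO libraries, against 123, 105 and 126 reads in WT libraries (log2 -3.42, SE 0.237, adjusted p 1.8e-23). Bcl6, the repressor that germinal centre B cells and follicular helper T cells need and that many other cell types also make, went the other way. It had 129, 143 and 138 reads in SHP-KO libraries, against 153, 116 and 144 reads in WT libraries, which at the different depths is 16.0 ± 0.408 CPM in SHP-KO and 10.7 ± 0.517 CPM in WT (SD, n = 3 each). This 1.48-fold rise (log2 0.57, SE 0.109, adjusted p 3.5e-06) did not pass an exact test with an assumed CV of 0.2 (adjusted p 0.075).

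Receptors that guide lymphocytes within follicles and T cell zones were lower. Cxcr5, the CXCL13 receptor of B cells and follicular helper T cells, had 18, 7 and 13 reads in SHP-KO libraries, against 74, 61 and 76 reads in WT libraries (log2 -1.89, SE 0.242, adjusted p 6.0e-11). Ccr7, which leads cells to T cell zones, had 0, 1 and 1 reads in SHP-KO libraries, against 27, 14 and 20 reads in WT libraries, a ratio of 20.5 (95% counting interval 5.43 to 173). Gpr183, the oxysterol receptor that positions B cells, had 4, 6 and 3 reads in SHP-KO libraries, against 18, 21 and 32 reads in WT libraries (log2 -1.85, SE 0.402, adjusted p 3.3e-05). In all of these genes the genotypes stayed apart, with Cxcr5 keeping 27.6% and Gpr183 27.1% of the WT level. Ccr6, the CCL20 receptor that brings B cells under the follicle epithelium, had no read in SHP-KO libraries, against 17, 10 and 14 reads in WT libraries, and was at least 9.17-fold lower. It did not pass the filter on low counts and was not tested in the main fit.

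Receptors that activated lymphocytes share with dendritic cells, and the lymphotoxin ligands, were also lower. Cd83, an activation marker, had 20, 18 and 13 reads in SHP-KO libraries, against 161, 140 and 147 reads in WT libraries (log2 -2.55, SE 0.182, adjusted p 1.1e-22). Btla, an inhibitory receptor of lymphocytes, had 1, 3 and 1 reads in SHP-KO libraries, against 53, 51 and 69 reads in WT libraries (log2 -4.46, SE 0.402, adjusted p 2.8e-17). Without SHP-KO replicate 2 the Btla value was -5.10. Il21r, the receptor of a cytokine of follicular helper T cells, kept 45.3% of its WT level, with 23, 22 and 18 reads in SHP-KO libraries, against 70, 70 and 67 reads in WT libraries (log2 -1.14, SE 0.209, adjusted p 1.3e-06). Ltb, the membrane-anchoring chain of lymphotoxin, had 15, 25 and 18 reads in SHP-KO libraries, against 129, 92 and 101 reads in WT libraries (log2 -1.89, SE 0.193, adjusted p 7.0e-15). Every SHP-KO library was below every WT library for these 4 genes. Lta, the other lymphotoxin chain, was rare in both genotypes, with 1, 4 and 3 reads in SHP-KO libraries, against 12, 8 and 14 reads in WT libraries, a ratio of 2.85 (95% counting interval 1.30 to 7.13), and it was not tested in the main fit.

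Genes made by the stromal and dendritic cells around B cells were lower as well. Cxcl13, on chromosome 5 from 96385958 to 96390087 (mm9), had 0, 2 and 1 reads in SHP-KO libraries, against 191, 141 and 162 reads in WT libraries, a ratio of 111 (95% counting interval 37.6 to 538). This chemokine of follicular stroma was among the most abundant of the 33 genes per kilobase in WT and nearly undetected in SHP-KO, and its fitted log2 fold change of -6.65 became -7.49 without SHP-KO replicate 2. Il22ra2, a soluble antagonist of interleukin 22 made by dendritic cells, had 15, 12 and 8 reads in SHP-KO libraries, against 121, 97 and 130 reads in WT libraries (log2 -2.73, SE 0.214, adjusted p 2.2e-20).

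The high endothelial genes went apart. Madcam1, the addressin that binds the gut homing integrin alpha4beta7, had 1, 0 and 1 reads in SHP-KO libraries, against 32, 34 and 26 reads in WT libraries, a ratio of 30.9 (95% counting interval 8.31 to 259). Chst4, a sulfotransferase that completes L-selectin ligands in high endothelium and that also sulfates mucins in mouse colon, had 50, 55 and 62 reads in SHP-KO libraries, against 25, 22 and 18 reads in WT libraries. Its level was 6.49 ± 0.556 CPM in SHP-KO and 1.71 ± 0.303 CPM in WT (SD, n = 3 each), a 3.81-fold rise (log2 1.93, SE 0.212, adjusted p 1.8e-13). Every SHP-KO library exceeded every WT library for Chst4, the reverse of Madcam1. Madcam1 lies on chromosome 10 from 79127319 to 79131281 and Chst4 on chromosome 8 from 112552975 to 112563234 (mm9).

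**Figure D2:**
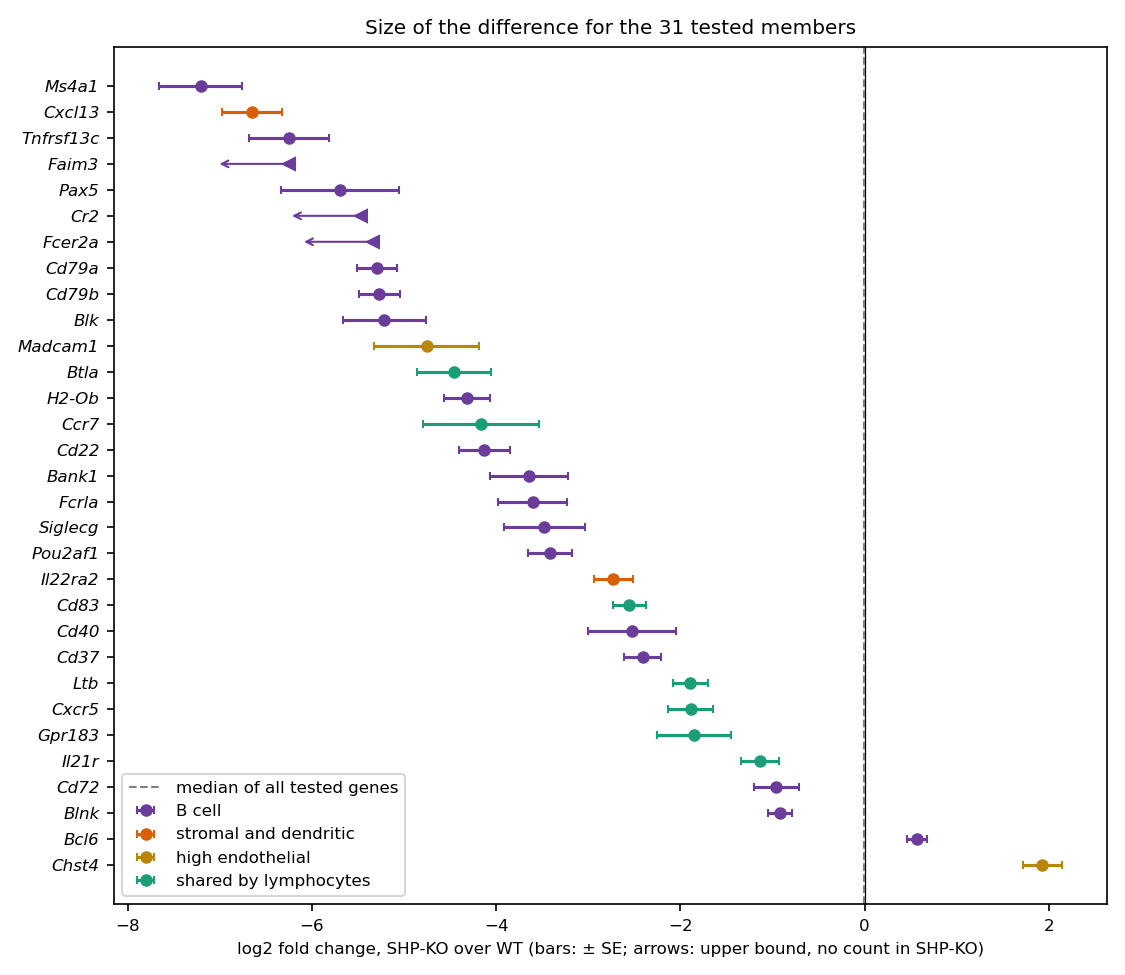
Log2 fold change (SHP-KO over WT) of the 31 tested genes, ordered by size, with bars of ± 1 SE and colours for B cell, shared lymphocyte, stromal or dendritic and high endothelial genes; arrows mark upper bounds for Faim3, Cr2 and Fcer2a, which had no read in SHP-KO. Ms4a1 and Cxcl13 lie furthest to the left, Blnk and Cd72 near -1, and only Bcl6 and Chst4 to the right of the dashed median of all tested genes.

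Set side by side, the 20 B cell genes gave 19 lower and 1 higher, beside 35.4% lower and 35.2% higher among all tested genes. Since 19 of the 31 tested members exceeded the filter's level in WT libraries only, the counts by class are a description. The B cell genes come first. Their log2 fold changes had a median of -4.22, the same value with Cr2, Fcer2a and Faim3 placed at their bounds. The 7 tested genes shared among lymphocytes were all lower, with a median of -1.89 and a range of -4.46 to -1.14. Cxcl13 and Il22ra2, the stromal and dendritic genes, had a median of -4.69, and the high endothelial genes Madcam1 and Chst4 stood at -4.76 and 1.93. The median of all tested genes was -0.012. No test of a difference between these classes was made, since they hold few genes and were chosen with results known. In summed level the B cell genes were at 31.2 ± 1.41 CPM in SHP-KO and 159 ± 2.62 CPM in WT, and most of the SHP-KO sum came from Bcl6 at 16.0 CPM and Blnk at 7.21 CPM. The 8 genes from Ms4a1 to H2-Ob, surface receptors and the class II modulator, were together at 2.75 ± 0.929 CPM in SHP-KO and 55.8 ± 1.56 CPM in WT, or 4.93% of the WT level (SD, n = 3 each).

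The order of levels per kilobase of exon differed between the genotypes. In SHP-KO the leading genes were Bcl6 at 4.86 ± 0.124, Blnk at 3.44 ± 0.222, Chst4 at 3.25 ± 0.278 and Ltb at 2.04 ± 0.401 CPM per kb (SD, n = 3). Blnk and Chst4 did not differ beyond their spread. In WT the leading genes were Cd79b and Cd79a, which did not differ beyond their spread, then Cxcl13 at 11.1 ± 0.820, Ltb at 7.65 ± 0.852 and Cd37 at 7.64 ± 0.371 CPM per kb, where Ltb and Cd37 also lay within their spread. Cd79b stood at rank 11 of 33 in SHP-KO and at rank 1 in WT, Cxcl13 at rank 20 in SHP-KO and at rank 3 in WT, and Chst4 at rank 3 in SHP-KO and at rank 28 in WT. The SHP-KO ranks of Cd79b and Cxcl13 rest on 12 and 3 reads in all. Both lay within the spread of the next gene, as did Chst4 in WT, so these ranks are not exact.

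Other B cell genes outside the 33 were mostly lower too. Of 22 tested genes of that list 20 were lower, Ciita was higher and Lyn did not pass. The median of their log2 fold changes was -2.05. For this list and those below, the shares among all tested genes were 35.4% lower and 35.2% higher. Spib, a transcription factor of B cells and M cells, was at -2.30, and Cd38, an ectoenzyme of lymphocytes and other cells, at -1.63. Lyn, a kinase also abundant in myeloid cells, was at 48.2 ± 2.91 CPM in SHP-KO and 50.9 ± 1.37 CPM in WT (log2 -0.08, adjusted p 0.25). Of 10 tested germinal centre genes 9 were lower and Irf8 higher (log2 0.75), with Fas at -1.20 and Gcnt3, which is mainly an epithelial mucin enzyme, at -1.19.

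Class II genes were divided. The B cell enriched modulators H2-Oa and H2-DMb2, picked after their values were seen, fell beside H2-Ob. Its alpha chain partner H2-Oa had 2, 5 and 1 reads in SHP-KO libraries, against 34, 37 and 40 reads in WT libraries (log2 -3.17), and H2-DMb2 had 3, 0 and 2 reads in SHP-KO libraries, against 84, 65 and 69 reads in WT libraries (log2 -4.79). In contrast the class II genes that all antigen-presenting cells use rose, with Cd74 at 1171 ± 16.2 CPM in SHP-KO and 213 ± 3.23 CPM in WT (log2 2.46), H2-Ab1 at log2 2.43 and H2-Aa at 2.09. Of the 7 genes of that list 6 rose and Ctss, a protease, fell (log2 -1.03). Among the 6 were H2-DMa (log2 1.56) and H2-DMb1 (log2 3.62), so the H2-DM genes did not all fall with H2-DMb2. Ciita, the master activator of class II genes, was at 11.2 ± 1.87 CPM in SHP-KO and 5.55 ± 0.830 CPM in WT (log2 1.00). H2-Oa, H2-DMb2 and Ciita belong to the list of other B cell genes.

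Ligands and attractants for the receptors above were listed with integrins and enzymes that act with them. Of 7 tested genes of that list 3 were higher (Tnfsf13, Hsd3b7 and Itgb7), Ccl20 and Itga4 were lower, and Tnfsf13b and Tnfrsf14 did not pass. Of all tested genes 35.2% were higher and 35.4% lower, and counts over so few genes do not set this list apart. Tnfsf13b, which encodes the TNFRSF13C ligand BAFF, had 47, 73 and 69 reads in SHP-KO libraries, against 100, 77 and 91 reads in WT libraries (log2 0.07, SE 0.148, adjusted p 0.68), with overlapping genotypes. Its relative Tnfsf13 (APRIL) rose (log2 1.28). Ccl20, the CCR6 ligand of the follicle epithelium, had 7, 9 and 8 reads in SHP-KO libraries, against 155, 120 and 164 reads in WT libraries (log2 -3.60, SE 0.217, adjusted p 4.4e-27). Its SHP-KO libraries lay below the filter's level, so that adjusted p is a description too. Integrin genes that pair to bind MAdCAM-1 parted, with Itgb7 at log2 0.60 and Itga4 at -0.64, and the Itgb7 libraries overlapped between genotypes. Hsd3b7, which breaks down the GPR183 ligand and also serves bile acid synthesis, rose (log2 0.41), whereas Ch25h, which begins to make that ligand, had at most 6 reads in any library. Ccl19 and Ccl21a, the CCR7 ligands, had no read in any library, which allows up to 0.117 CPM in SHP-KO and 0.0783 CPM in WT, and Ccl21a has near-identical copies, whose shared reads were not counted.

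Of the other genes of follicular stroma 8 of 10 tested were lower, beside 35.4% of all tested genes. Ltbr was higher (log2 0.50) and Bst1 did not pass (log2 0.00, adjusted p 0.998). Pdpn and Tnfsf11 of that list were not tested and differed in direction. Pdpn had 18, 8 and 9 reads in SHP-KO libraries, against 6, 4 and 4 reads in WT libraries. Tnfsf11 had 2, 0 and 0 reads in SHP-KO libraries, against 13, 7 and 9 reads in WT libraries. Ltbr, the lymphotoxin beta receptor, is widely made by epithelium and stroma, and was at 184 ± 5.73 CPM in SHP-KO and 130 ± 3.50 CPM in WT. Clu and Mfge8, secreted proteins made by follicular dendritic cells among others, were at log2 -1.75 and -1.74, and Tnfrsf11a, the RANKL receptor, at -1.06. Of 8 further high endothelial genes 4 were tested, and they split evenly: Gcnt1, which builds the core glycan of L-selectin ligands, and Chst2, a sulfotransferase, were lower at -3.66 and -1.30, and Cd34 and Podxl, sialomucins of all blood vessels, were higher at 0.88 and 1.51. The other 4 had few reads and were not tested, and they differed in direction. Glycam1, which carries those glycans in lymph node venules, had no read in SHP-KO libraries, against 5, 4 and 3 reads in WT libraries, and Fut7, a fucosyltransferase that completes them, had 3, 8 and 6 reads in SHP-KO libraries, against 15, 15 and 11 reads in WT libraries, with overlapping CPM. Darc, a chemokine-binding receptor of venules, had 3 reads in each SHP-KO library, against 0, 1 and 0 reads in WT libraries, a ratio of 13.4 (95% counting interval 1.86 to 588). Emcn, an endothelial sialomucin, had 6, 8 and 9 reads in SHP-KO libraries, against 5, 3 and 3 reads in WT libraries, so that both lay above WT in every SHP-KO library. Blood endothelial markers in general were mostly higher, with 4 of 6 tested up (Esam at log2 2.27 and Eng at 1.81), Tie1 down (-1.30) and Pecam1 not passing.

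Other leukocyte markers did not fall alike. All 8 pan-leukocyte genes were lower, with a median log2 fold change of -1.55 and a summed level of 85.5 to 86.8 CPM in SHP-KO and 193 CPM in every WT library. Coro1a and Cd52 were at -1.60 and -2.02, and Rac2 at -1.49. T cell genes were mostly higher, 8 of 11 tested, with Cd2 lower (log2 -3.31) and Cd247 and Cd4 not passing. Their summed level was 48.8 to 56.3 CPM in SHP-KO and 30.3 to 32.3 CPM in WT. Pdcd1, Cd28, Icos and Cd8b1 had few reads and were not tested. Pdcd1 had 1, 0 and 0 reads in SHP-KO libraries, against 7, 3 and 8 reads in WT libraries. Cd28 had 1, 0 and 1 reads in SHP-KO libraries, against 6, 2 and 5 reads in WT libraries. Icos (lower mean in SHP-KO) and Cd8b1 (higher) had overlapping CPM. Cd8a rose (log2 1.24), as did Lat (1.69), while Cd4 was at 2.05 ± 0.231 CPM in SHP-KO and 2.12 ± 0.407 CPM in WT (log2 -0.05, adjusted p 0.87). Plasma cell genes gave 4 higher, 2 lower (Sdc1 and Irf4) and 2 not passing of 8 tested. Igj, the joining chain of IgA and IgM, had 831, 842 and 894 reads in SHP-KO libraries, against 477, 381 and 468 reads in WT libraries (log2 1.53), and Pim2 was at 0.96. Sdc1, which enterocytes also make, was at -1.30. The summed level of the plasma cell list was lower in SHP-KO, at 375 to 380 CPM, against 448 to 458 CPM in WT. Sdc1 alone held 109 ± 3.26 CPM of it in SHP-KO and 269 ± 4.05 CPM in WT, so the sum went against Igj. Among 10 tested dendritic cell and macrophage genes 3 were higher (Itgam, Cd68 and Cx3cr1), 4 lower (Flt3, C1qb, Lyz2 and Mrc1) and 3 did not pass, with Lyz2 at -2.56 and Itgam at 1.63.

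Markers of the epithelium over follicles moved with the B cell genes, and their part in the result was not tested. Of 10 tested genes of follicle-associated epithelium and M cells 9 were lower and Anxa5, which many cells make, was higher (log2 0.43), with a summed level of 123 to 138 CPM in SHP-KO and 305 to 309 CPM in WT. Gp2, the receptor of M cells, had 18, 14 and 15 reads in SHP-KO libraries, against 377, 287 and 360 reads in WT libraries (log2 -3.86), and Marcksl1 was at -1.55. Ccl20, Spib and Tnfrsf11a stand in this list and in another. Markers of gut segment and of the muscle wall moved in the same libraries, and their part was not tested either. Ileum markers summed to 5546 to 5743 CPM in SHP-KO and 19017 to 19378 CPM in WT, with 5 of 8 lower and Slc10a2, Pyy and Muc13 higher. All 8 markers of the proximal small intestine rose, summing to 8556 to 8783 CPM in SHP-KO and 1681 to 1705 CPM in WT. All 9 smooth muscle markers rose too, as did the 4 adipocyte markers tested. In each of these sums the genotypes did not overlap.

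**Figure D3:**
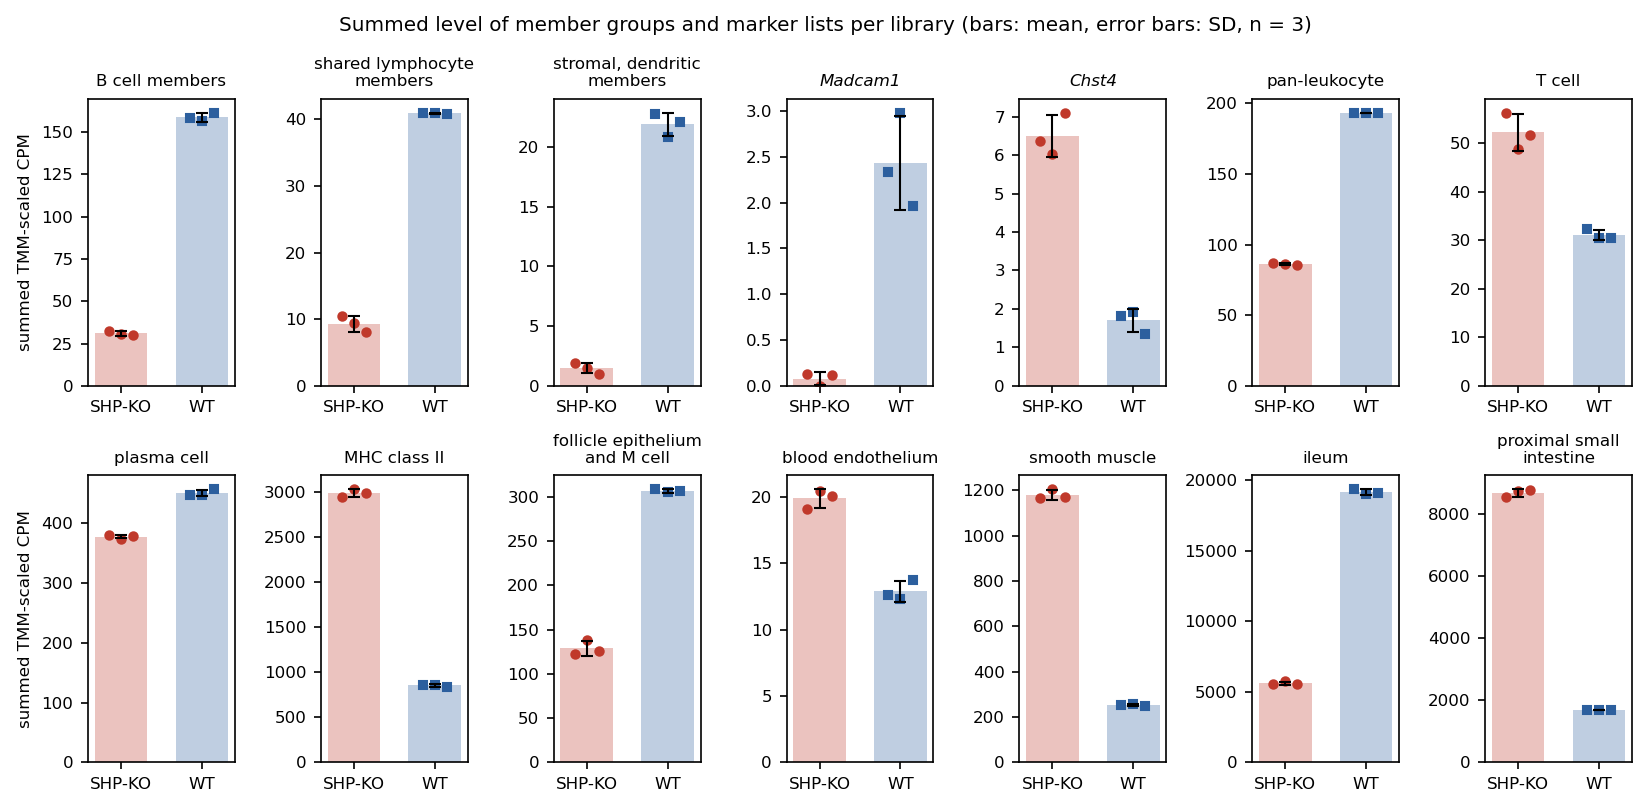
Summed TMM-scaled CPM per library (points) of member groups, of Madcam1 and Chst4, and of marker lists, SHP-KO left and WT right in each panel, with bars for the mean and error bars for the SD (n = 3). B cell, stromal, plasma cell and follicle epithelium sums are lower in SHP-KO, whereas T cell, MHC class II, smooth muscle and proximal sums are higher.

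Within the whole distribution the members gathered at the lower end. A log2 fold change of -3 or less was found in 19 of the 31 tested members and in 103 of 12106 tested genes, or 0.851%. This count includes Cr2, Fcer2a and Faim3, whose bounds lie below -3 as well. At -5 or less stood 10 members of 23 genes in all. These sizes favour genes that are readily counted in WT and near 0 in SHP-KO, and the members were chosen with such values known. In the authors' deposited table, which used an edgeR comparison of its own, all 33 members were listed, 31 with a negative log2 fold change and an adjusted p below 0.05, against 15.6% of the 12939 genes of the table. In the authors' deposited table Chst4 was the 1 member higher, with a log2 fold change of 1.91 and an adjusted p of 3.6e-08, and Bcl6 had a log2 fold change of 0.55 and an adjusted p of 0.085.

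**Figure D4:**
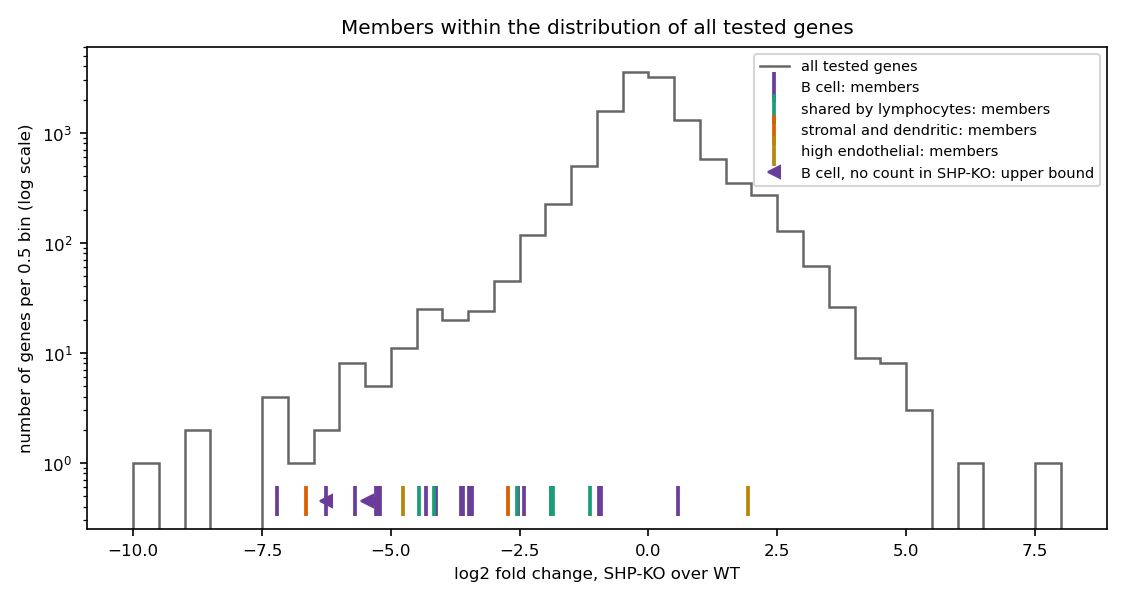
Number of tested genes per bin of 0.5 in log2 fold change (SHP-KO over WT; log axis, grey outline), with the tested members as coloured ticks and upper bounds as triangles for Cr2, Fcer2a and Faim3, which had no read in SHP-KO. Apart from Bcl6 and Chst4 the members lie left of the peak, and 10 of the 23 genes at or below -5 are members.

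Promoters of these genes are shown because most of the set moved together. RefSeq windows (GRCm38.p6, a later build than the mm9 of the counts), from 250 bases before to 50 after each gene's start, were found for 25 of the 33 genes. Shown here, 5′ to 3′, are the 250 bases before the start of Cd79a, Cr2 and Cd22 (B cell genes), Ltb (lymphotoxin), and Madcam1 and Chst4 (high endothelial genes). Capitals mark matches on either strand to 5 motifs: the E-box CAGGTG bound by E2A, TCCC and GGGA with 2 free bases between them for EBF1, GAGGAAGT for PU.1 and Spi-B, the octamer ATGCAAAT, and the kappaB motif of GGGA and TTTCC with 1 free base between them.
Cd79a, chr7:24897247-24897496 (plus strand): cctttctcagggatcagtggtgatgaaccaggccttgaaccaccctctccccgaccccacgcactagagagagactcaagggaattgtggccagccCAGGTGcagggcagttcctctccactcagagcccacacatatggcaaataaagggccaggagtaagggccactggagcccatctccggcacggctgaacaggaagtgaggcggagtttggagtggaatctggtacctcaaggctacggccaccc
Cr2, chr1:195176720-195176969 (minus strand): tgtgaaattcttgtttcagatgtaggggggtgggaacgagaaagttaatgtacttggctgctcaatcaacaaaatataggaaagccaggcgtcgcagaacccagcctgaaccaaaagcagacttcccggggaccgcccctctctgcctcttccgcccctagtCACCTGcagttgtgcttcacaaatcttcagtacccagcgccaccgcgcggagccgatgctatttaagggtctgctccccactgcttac
Cd22, chr7:30879029-30879278 (minus strand): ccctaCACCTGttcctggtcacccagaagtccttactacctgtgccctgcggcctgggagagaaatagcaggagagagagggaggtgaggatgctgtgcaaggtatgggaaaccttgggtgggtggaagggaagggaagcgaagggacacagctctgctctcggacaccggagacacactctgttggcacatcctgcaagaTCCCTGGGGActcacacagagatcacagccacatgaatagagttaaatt
Ltb, chr17:35194257-35194506 (plus strand): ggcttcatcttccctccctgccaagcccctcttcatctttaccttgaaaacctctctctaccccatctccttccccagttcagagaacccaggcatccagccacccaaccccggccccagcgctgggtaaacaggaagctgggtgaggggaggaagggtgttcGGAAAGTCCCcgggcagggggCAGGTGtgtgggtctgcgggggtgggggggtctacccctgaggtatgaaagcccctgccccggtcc
Madcam1, chr10:79664309-79664558 (plus strand): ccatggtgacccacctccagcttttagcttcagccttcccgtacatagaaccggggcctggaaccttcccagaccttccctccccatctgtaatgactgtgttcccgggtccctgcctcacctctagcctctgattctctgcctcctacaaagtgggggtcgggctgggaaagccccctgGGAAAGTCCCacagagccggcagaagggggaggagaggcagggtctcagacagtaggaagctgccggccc
Chst4, chr8:110039335-110039584 (minus strand): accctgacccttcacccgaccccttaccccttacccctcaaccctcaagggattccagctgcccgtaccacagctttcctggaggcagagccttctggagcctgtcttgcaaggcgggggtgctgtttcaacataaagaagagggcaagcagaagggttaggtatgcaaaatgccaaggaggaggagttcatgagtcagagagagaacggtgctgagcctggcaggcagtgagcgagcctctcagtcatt
The E-box was the most frequent of these letters, in 11 of the 25 genes with a window (44.0%), 10 of which are among the 16 B cell genes with a window, and in 22.6% of all 27025 genes with a window. Some genes have several windows, which gives more letters to match. The kappaB motif was found in Ltb and Madcam1, as the same 10 letters GGAAAGTCCC, and in 0.466% of all genes. Cd22 held the EBF1 motif, found in 1.06% of all genes. The octamer was found in Blnk and Ccr6 and in 1.97% of all genes, and GAGGAAGT in Btla, Cd37 and Cd72 and in 3.69% of all genes. None of the 5 was found in 10 of the 25 genes: Chst4 and Bcl6, which were higher in SHP-KO, and Siglecg, H2-Ob, Pax5, Pou2af1, Gpr183, Il21r, Lta and Cxcl13, whose SHP-KO libraries all lay below WT. The lack of a match was thus not particular to Chst4, and the 5 other windows printed were picked among genes with a match. E-box matches can fall beside other motifs but overlapped none of them in these windows. A match is a run of letters and not a shown binding site, and no match says only that these letters are not in the window.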

How the data were processed

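How transcripts were selected from total RNA is not given in the sources used here, and reads were 100 bp long, per the labels' protocols. Each library's deposited file gives raw counts by gene, which featureCounts 1.5.2 summed over exons on either strand, per the file headers. The submitters' processing notes name Trimmomatic 0.38, STAR 2.6.0c, edgeR and the build mm9. A second deposited table has the authors' own log2 fold changes with p-values, raw and adjusted, and served for 1 comparison. The recorded command leaves out multi-mapping reads, which lowers genes with close copies.

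Genes were filtered with filterByExpr (minimum count 10), scaled by TMM and tested with edgeR 4.0.16 (quasi-likelihood, robust fit, R 4.3.3). The Benjamini-Hochberg adjustment ran over all 12106 tested genes. SEs were derived from that fit. A fold against a group without reads is a bound at a floor of 3 counts over the group. For members at 1 to 3 counts, a ratio of depth-scaled sums stands with an exact 95% interval. Pairs of libraries of a genotype differed by more than sampling noise (chi-square per degree of freedom 1.33 to 1.98), so that none was merged. The 33 members, the marker lists and the rule for named genes (the members, the 3 lowest p-values of each list, genes that went against their list where 5 or fewer did, and named ligands) were chosen with earlier results of these data known. Other list members are named where their count is given and were then picked after their values were seen. Some genes of these lists are counted but not reported here by name. Alternatives were other scalings and filters, DESeq2 1.42.0, limma-voom 3.58.1, a fit without robust estimation, an exact test with an assumed CV of 0.2, a replicate block and leaving out each library. Figures were drawn with matplotlib 3.10.9.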

Additional observations from a re-analysis of the deposited data

How the results depend on the processing

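Among the members, 29 were lower and 2 higher in SHP-KO, and counts of 29 to 31 lower and 2 higher were found under each other scaling, filter and tool except the exact test, and with any 1 library left out (all genes lower 4114 to 4199, higher 4138 to 4208). The 2 added members under looser filters, or without 1 SHP-KO library, were Ccr6 and Lta. Lta passed at an adjusted p of 0.014 with all genes of at least 10 summed counts, but not without SHP-KO replicate 1 (adjusted p 0.070). With the exact test at an assumed CV of 0.2, 29 members were lower and 1 higher, since Bcl6 (log2 0.57) did not pass, and 1877 genes in all were lower and 2164 higher. The cause was not tested. None of the tested members changed direction under any of these settings. For genes without reads in SHP-KO the fitted values depend on the tool, and Faim3 was at -9.57 in edgeR, -8.69 in DESeq2 and -7.25 in limma-voom. With the replicate number as a block 29 members were lower and 2 higher, and 4307 genes in all were lower and 4266 higher. Same-numbered libraries deviated from their group means with correlations of -0.0054 to 0.028, and differently numbered ones with -0.0303 to 0.00983. With 3 libraries per genotype these values cannot decide whether the numbers pair the samples. On the forward strand alone the motif counts over members were 0 for the octamer, 1 for EBF1, 1 for GAGGAAGT, 0 for kappaB and 6 for the E-box. Depth limits the members with under 10 reads in SHP-KO, whose ratios have wide counting intervals.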
